A study of Mus musculus with 7 samples.

Results

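Interstitial matrix glycoproteins and proteoglycans were followed through 10 genes, taken by symbol from the deposited table of 31531 genes: *Fn1*, *Tnc*, *Postn* and *Sparc*, which encode fibronectin, tenascin-C, periostin and osteonectin, the proteoglycan genes *Vcan*, *Dcn*, *Lum* and *Bgn*, and the fibrillin genes *Fbn1* and *Fbn2*. All 10 had reads in each of the 7 libraries. RNA was measured by SMART-seq2 in muscle fibers of mouse fetuses at embryonic day 17.5. The WT group (4 libraries) and the dyW group (3 libraries, labelled homozygous dyW/dyW) were C57BL/6 fetuses from crosses of heterozygous dyW mice. The dyW allele disrupts *Lama2*, the gene of the laminin α2 chain, in every cell of the fetus, and the mice serve as a model of LAMA2-congenital muscular dystrophy. Fibers were freed from the epaxial muscles of the back with dispase II and collagenase A, and what stayed on a strainer was lysed, with no further sorting of cell types.

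The interstitial matrix fills the space between the basement membranes of muscle fibers and is made mainly by fibroblasts, tendon cells and, in the skeleton, cartilage and bone cells. Fibronectin and fibrillin microfibrils form scaffolds, small leucine-rich proteoglycans sit on collagen fibrils and regulate their width, versican holds hyaluronan and water, and matricellular proteins such as tenascin-C, periostin and osteonectin modulate how cells attach. Muscle fibers themselves contact laminin 211 of the basement membrane, and an expanded interstitial matrix is a known feature of muscle that lacks this laminin.

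The libraries differed in which tissue markers they held. The targeted gene, *Lama2*, had between 90.6 and 111 normalized counts (reads on the gene over a size factor of the library) in WT, 4.29 in dyW1 and 6.07 in dyW2. It had 139.7 in the third dyW library, above every WT value, so that library is called the library labelled dyW3, and the fold change of each of the 10 genes in the deposited scaling is also given without it. Summed over 10 myofiber genes, dyW1 had 65.8 normalized counts, with 4 of these genes at 0, *Ckm* among them (named after its values were seen), whereas the other libraries had between 2660.2 and 69988. In dyW1, the bone matrix genes *Spp1*, *Ibsp* and *Dmp1* (the last 2 named after their values were seen) stood at 74905, 8191 and 2504, and *Spp1* was otherwise high only in WT3 (16501). *Bglap*, which encodes osteocalcin of mature bone and was also named after its values were seen, was not high in dyW1, at 13.7 against 5.33 to 14.4 in WT. WT1 had the lowest myofiber sum of its group, and *Col2a1*, the main cartilage collagen, at 415687 against 40.5 to 6462 in the other WT libraries. The hemoglobin genes of red blood cells summed to 15.99 in WT1 and 14.8 in dyW1, against at least 28845 in the others. The same fold changes are therefore also given without WT1 and dyW1. On genes, 470804 to 2220813 reads were counted in the WT libraries and 3663905 to 18297106 in the dyW libraries.

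The results turn mostly on *Vcan*, with the smallest adjusted *P*-value of the 10, *Tnc*, with groups that did not overlap, and *Postn*, the most abundant of the 10 per kb in the library labelled dyW3. Their 250 bases upstream of an annotated start are shown to place the promoter of each, from RefSeq on GRCm38.p6, whose coordinates differ from those of GRCm39 used elsewhere. The second of 2 listed starts was used for *Tnc* and *Postn*. Capitals mark the TATA box (TATAAA), the CCAAT box (CCAAT) and the GC box (GGGCGG) on either strand, so that ATTGG and CCGCCC are the boxes read from the other strand.
*Vcan*, chr13:89742513-89742762, minus strand: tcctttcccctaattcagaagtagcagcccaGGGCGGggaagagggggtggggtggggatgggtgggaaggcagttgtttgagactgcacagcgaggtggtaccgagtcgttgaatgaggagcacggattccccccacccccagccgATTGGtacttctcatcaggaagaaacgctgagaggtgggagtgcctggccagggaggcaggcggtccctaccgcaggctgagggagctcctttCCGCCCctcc
*Tnc*, chr4:64046937-64047186, minus strand: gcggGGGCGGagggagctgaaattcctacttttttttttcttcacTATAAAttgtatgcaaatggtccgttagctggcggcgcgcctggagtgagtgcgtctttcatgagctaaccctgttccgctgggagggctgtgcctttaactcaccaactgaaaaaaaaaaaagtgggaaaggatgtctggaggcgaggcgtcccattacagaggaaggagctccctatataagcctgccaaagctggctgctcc
*Postn*, chr3:54360857-54361106, plus strand: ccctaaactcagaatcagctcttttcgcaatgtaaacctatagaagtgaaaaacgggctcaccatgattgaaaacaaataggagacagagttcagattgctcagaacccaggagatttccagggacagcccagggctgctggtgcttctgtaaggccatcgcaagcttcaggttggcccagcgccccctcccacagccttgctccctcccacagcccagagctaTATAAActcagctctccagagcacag
In *Postn* the TATA box began 26 bases before the start. In *Vcan* a CCAAT box lay 103 bases and GC boxes 219 and 10 bases before it, and in *Tnc* a GC box lay 246 and TATAAA 205 bases before it. Only the exact letters were searched, so the tatataa that lies closer to the start in the *Tnc* window is not marked. Of 32851 RefSeq windows of 250 bases, 12.4% held TATAAA, 33.8% CCAAT and 32.7% GGGCGG, so each is a common sequence. The AP-1 motif (TGANTCA), found in 6.75% of windows, was not in these 3, which says only that these letters are absent from them. RefSeq windows of 6 of the 10 genes were searched, and the other windows are not shown.

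Groups were compared with limma on log2(normalized count + 1) across all 25791 genes with a mean of at least 5 normalized counts, and a gene was called at an adjusted *P*-value under 0.01 with an absolute log2 fold change over 1.5. By this rule 0 of the 10 genes were called in either direction. Of all genes tested, 0.0659% were called higher (0.278% of those with a mean of at least 50) and 18.7% lower in dyW (150 of the 6111 with a mean of at least 50). At an adjusted *P*-value under 0.05 with the same fold change, 1 of the 10 was higher, *Vcan*, beside 1% of all genes (29.6% were lower) and 3.98% of those with a mean of at least 50 normalized counts, the range in which all 10 lie. In that range 311 of 6111 genes were lower. At an unadjusted *P*-value under 0.05, *Tnc* and *Vcan* were higher, beside 2.81% of all genes and 10.7% of those with a mean of at least 50. None of the 10 was lower, beside 41.5% of all genes and 543 of the 6111 with a mean of at least 50. The log2 fold change was positive for 8 genes and negative for *Bgn* and *Sparc*. The median was 1.24 over the 10 genes, −1.99 over all genes tested and 0.20 over the 6111 genes with a mean of at least 50. Relative to the median of all genes, the log2 fold changes of the 10 genes ran from 0.34 for *Sparc* to 4.47 for *Vcan*. Fewer cells of a type and less RNA per cell cannot be told apart in such bulk libraries.

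**Figure D1:**
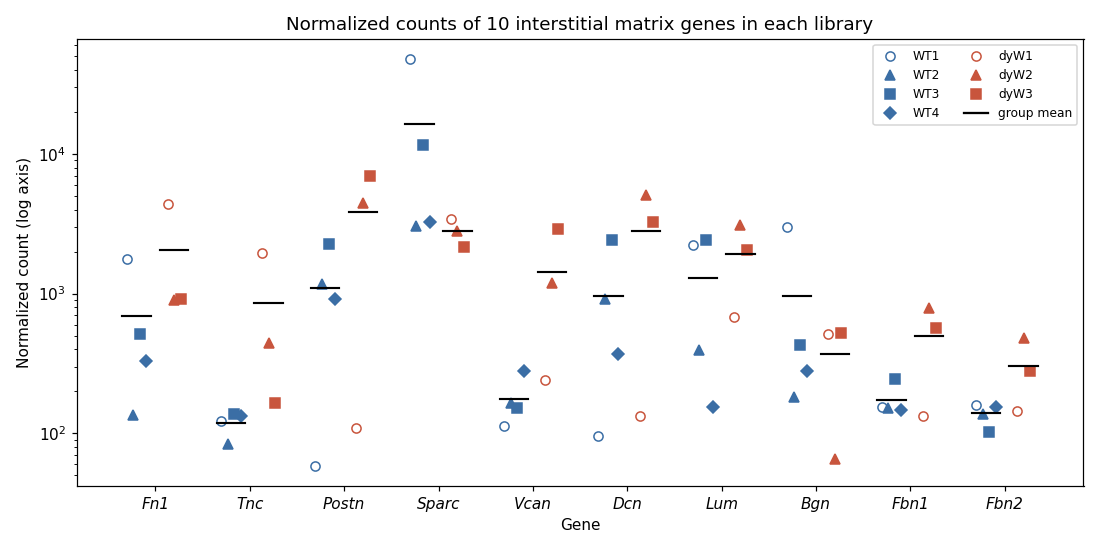
Normalized count (log axis) of each of the 10 genes in the 4 WT (blue) and 3 dyW (red) libraries, where each point is a library, open circles are WT1 and dyW1, the red square is the library labelled dyW3 and bars are group means. *Tnc* is the gene whose dyW points all lie above its WT points, and *Postn* and *Dcn* have their lowest points in WT1 and dyW1.

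Among the adhesive and matricellular glycoproteins, *Tnc* was the gene whose groups were apart. Tenascin-C is an anti-adhesive glycoprotein of tendon, bone and healing muscle. *Tnc* (ENSMUSG00000028364, chromosome 4 from 63878014 to 63965443 of GRCm39, minus strand) had 123, 83.6, 137 and 132 normalized counts in WT1 to WT4, and 1958, 446 and 164 in dyW1, dyW2 and the library labelled dyW3. Every dyW library was above every WT library, but the margin was narrow in the library labelled dyW3 and wide in dyW1. Of all genes tested, 3.28% were separated in this direction (12.2% of those with a mean of at least 50) and 31.5% in the other. The WT mean was 119 ± 24.4 (SD, n = 4) against a dyW mean of 856 ± 965 (SD, n = 3), and the exact two-sided permutation test gave *P* = 0.0571, the smallest that 4 libraries against 3 allow. In the limma fit the log2 fold change was 2.15 (SE 0.803, adjusted *P* = 0.0701). It was 2.99 without the library labelled dyW3 (adjusted *P* = 0.0117), 1.23 without WT1 and dyW1 (adjusted *P* = 0.217) and 1.20 without dyW1 alone (adjusted *P* = 0.186). The WT values rest on 23 to 67 reads. In dyW1, *Spp1*, *Ibsp* and *Dmp1* were also high and *Bglap* was not, and the part of bone in the level of *Tnc* was not tested.

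*Fn1* (ENSMUSG00000026193, chromosome 1 from 71624673 to 71692419, minus strand) encodes fibronectin, the fibrillar glycoprotein that cells bind through integrins. It had 1770.0, 135, 515 and 330.4 normalized counts in WT1 to WT4, and 4353, 899 and 920.0 in dyW1, dyW2 and the library labelled dyW3. The groups overlapped only through WT1, which was above dyW2 and the library labelled dyW3. Its log2 fold change was 1.77 (SE 0.911, limma adjusted *P* = 0.168), or 2.14 without the library labelled dyW3 (adjusted *P* = 0.138). It was 1.67 without WT1 and dyW1 (adjusted *P* = 0.112), with means of 327 ± 190.0 (SD, n = 3) in WT and 909.6 over 2 dyW libraries. Without dyW1 alone it was 1.02 (adjusted *P* = 0.441), and the difference in mean level went from 1370 to 222 normalized counts.

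*Postn* (ENSMUSG00000027750, chromosome 3 from 54268501 to 54298471, plus strand) encodes periostin, a matricellular protein of fibroblasts and periosteum that binds collagen and tenascin-C. It varied more than any other of the 10, with the highest library 119 times the lowest. It had 58.6, 1176, 2263 and 916 normalized counts in WT1 to WT4, and 108, 4491 and 6996 in dyW1, dyW2 and the library labelled dyW3. WT1 and dyW1 were the lowest libraries of their groups by a wide margin, and between the others every dyW library was above every WT library. With all libraries the log2 fold change was 1.29 (SE 1.62, limma adjusted *P* = 0.571). It was 2.06 without WT1 and dyW1 (SE 0.495, adjusted *P* = 0.0267), which passes an adjusted *P*-value under 0.05 but not the rule for calls. Without the library labelled dyW3 it was 0.18 (adjusted *P* = 0.939), without WT1 alone 0.16 (adjusted *P* = 0.947) and without dyW1 alone 3.18 (adjusted *P* = 0.107).

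*Sparc* (ENSMUSG00000018593, chromosome 11 from 55285317 to 55314067, minus strand) encodes osteonectin, a collagen-binding glycoprotein of bone, cartilage and connective tissue, and had the highest mean per kb of the 10 genes in both groups. It had 47815, 3069, 11664 and 3257 normalized counts in WT1 to WT4, and 3447, 2803 and 2166 in dyW1, dyW2 and the library labelled dyW3. The highest dyW library, dyW1, was above WT2 and WT4, and the spread was wide in WT (highest over lowest 15.6) and narrow in dyW (1.59). The log2 fold change was −1.65 (SE 0.881, limma adjusted *P* = 0.183), or −1.47 without the library labelled dyW3 (adjusted *P* = 0.293). It was −0.99 without WT1 and dyW1 (adjusted *P* = 0.309), −0.83 without WT1 alone (adjusted *P* = 0.350), −0.50 with equal totals (adjusted *P* = 0.779) and −0.27 with voom on the recovered reads (adjusted *P* = 0.858). WT1 and WT3, the WT libraries where *Sparc* was highest, also had the highest sums over 10 cartilage genes, 474469 and 26798, against 278 and 3433 in WT2 and WT4 and 19.7 to 1128 in dyW, where 6 of these genes were at 0 in dyW2 and 1 in the library labelled dyW3. The part of cartilage in the level of *Sparc* was not tested.

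Among the proteoglycans, *Vcan* showed the largest log2 fold change of the 10 genes. Versican is a large chondroitin sulfate proteoglycan that binds hyaluronan in the loose matrix of developing tissue. *Vcan* (ENSMUSG00000021614, chromosome 13 from 89803431 to 89890814, minus strand) had 112, 164, 152 and 280.0 normalized counts in WT1 to WT4, and 242, 1192 and 2887 in dyW1, dyW2 and the library labelled dyW3. dyW2 and the library labelled dyW3 were above every WT library, while dyW1 lay between WT2 and WT4. The means were 177 ± 72.2 (SD, n = 4) and 1440.2 ± 1339.6 (SD, n = 3), a ratio of 8.13 (exact two-sided permutation test, *P* = 0.114). The log2 fold change was 2.49 (SE 0.814, 95% confidence interval 0.64 to 4.33, limma adjusted *P* = 0.0467). Without WT1 and dyW1 it was 3.27 (SE 0.584, adjusted *P* = 0.0169), and without dyW1 alone 3.46 (adjusted *P* = 0.00955), the setting in which *Vcan* was called. Without the library labelled dyW3 it was 1.68 (adjusted *P* = 0.118). The pass at an adjusted *P*-value under 0.05 held when dyW1 was left out and was lost when any other single library was, at adjusted *P*-values from 0.0734 (without WT4) to 0.118. This pass was also lost with a pseudocount of 0.1 (limma adjusted *P* = 0.0565) or 10 (0.0529), at a mean of at least 50 (0.142) and with a replicate block (0.0614). With no filter on low values it held (0.0471).

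The small leucine-rich proteoglycans *Dcn*, *Lum* and *Bgn* encode decorin, lumican and biglycan, and none of them passed the test. *Dcn* (ENSMUSG00000019929, chromosome 10 from 97315275 to 97358155, plus strand) had 96.0, 911, 2441 and 371 normalized counts in WT1 to WT4, and 134, 5065 and 3255 in dyW1, dyW2 and the library labelled dyW3. As for *Postn*, WT1 and dyW1 were low, and the other 2 dyW libraries were above every WT library. In the fit its log2 fold change was 1.29 (SE 1.41, limma adjusted *P* = 0.510), 2.11 without WT1 and dyW1 (adjusted *P* = 0.104) and 0.63 without the library labelled dyW3 (adjusted *P* = 0.768). Single libraries moved it between 0.31 (without dyW2, adjusted *P* = 0.899) and 2.93 (without dyW1, adjusted *P* = 0.0922).

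*Lum* (ENSMUSG00000036446, chromosome 10 from 97400990 to 97408577, plus strand), the neighbour of *Dcn*, had 2239, 394, 2408 and 154 normalized counts in WT1 to WT4, and 683, 3093 and 2038 in dyW1, dyW2 and the library labelled dyW3. Unlike *Dcn* it was high in WT1, and the groups overlapped with and without WT1 and dyW1. For *Lum* the log2 fold change was 1.10 (SE 1.02, limma adjusted *P* = 0.436), or 0.94 without the library labelled dyW3 (adjusted *P* = 0.555). It was 0.34 without WT4 (adjusted *P* = 0.819) and 0.64 without dyW2 (adjusted *P* = 0.721). Without WT1 and dyW1 it was 2.25 (SE 1.15, adjusted *P* = 0.201).

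*Bgn* (ENSMUSG00000031375, chromosome X from 72527208 to 72539541, plus strand), whose product is typical of bone and cartilage, had 2985, 181, 431 and 280.0 normalized counts in WT1 to WT4, and 511, 65.3 and 523 in dyW1, dyW2 and the library labelled dyW3. WT1 stood far above all other libraries and dyW2 was the lowest, so the groups overlapped on both sides. Its log2 fold change was −0.96 (SE 1.09, limma adjusted *P* = 0.529), −0.59 without WT1 and dyW1 (adjusted *P* = 0.691) and −1.46 without the library labelled dyW3 (adjusted *P* = 0.362). Its sign depended on the scaling: with equal totals it was 0.19.

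Fibrillins 1 and 2 polymerize into microfibrils that carry elastin and store latent TGF-β. *Fbn1* (ENSMUSG00000027204, chromosome 2 from 125142514 to 125349913, minus strand) had 155, 151, 244 and 148 normalized counts in WT1 to WT4, and 132, 791 and 566 in dyW1, dyW2 and the library labelled dyW3. Compared with the WT libraries, dyW1 was below all of them and the other 2 dyW libraries were above. The log2 fold change was 1.19 (SE 0.679, limma adjusted *P* = 0.210), and 0.92 without the library labelled dyW3 (adjusted *P* = 0.368). It was 0.68 without dyW2 (adjusted *P* = 0.510), 1.97 without dyW1 alone (adjusted *P* = 0.0295) and 0.37 with quantile normalization (adjusted *P* = 0.851). Without WT1 and dyW1 it was 1.92 (SE 0.50, adjusted *P* = 0.0334).

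*Fbn2* (ENSMUSG00000024598), the fibrillin of fetal tissue, had the lowest level per kb of the 10 genes in both groups. It had 159.9, 138, 103 and 154 normalized counts in WT1 to WT4, and 144, 479.6 and 281 in dyW1, dyW2 and the library labelled dyW3. The library dyW1 lay among the WT libraries and the other 2 dyW libraries above them. The log2 fold change was 0.97 (SE 0.568, limma adjusted *P* = 0.221), 1.49 without WT1 and dyW1 (adjusted *P* = 0.0845), 0.94 without the library labelled dyW3 (adjusted *P* = 0.286) and 0.56 without dyW2 (adjusted *P* = 0.517).

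**Figure D2:**
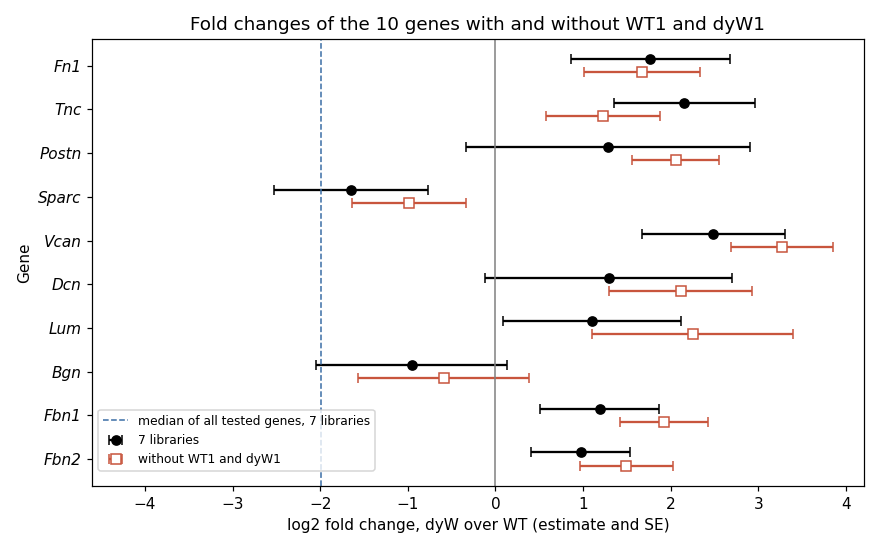
log2 fold change of dyW over WT for the 10 genes, with bars of 1 SE, from all 7 libraries (filled circles) and without WT1 and dyW1 (open squares), and the median over all tested genes as a dashed line at −1.99. All 10 estimates from 7 libraries lie to the right of the dashed line, *Sparc* nearest to it.

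Without WT1 and dyW1, which leaves 3 WT libraries, dyW2 and the library labelled dyW3 (the one with *Lama2* above every WT value), 7 of the 10 genes (*Fn1*, *Tnc*, *Postn*, *Vcan*, *Dcn*, *Fbn1* and *Fbn2*) were higher in both of the latter than in every WT library, and *Sparc* was lower. Of all genes tested, 7.35% were separated higher and 45.2% lower, and 24.2% of those with a mean of at least 50 were separated higher. *Postn*, *Vcan* and *Fbn1* passed an adjusted *P*-value under 0.05 with a log2 fold change over 1.5, beside 0.809% of all genes (30.8% were lower) and 3.13% of those with a mean of at least 50. By the rule for calls 0 genes were called at all, although 2.75% of genes were higher and 38.9% lower at an unadjusted limma *P*-value under 0.05. The exact permutation test cannot go below 0.2 with 3 libraries against 2.

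The fold changes depended on the scaling. The −1.99 median of all genes became −0.98 when each library was brought to an equal total and 0.06 with quantile-normalized values. For the 10 genes the 3 medians were 1.24, 2.39 and 1.23, so the gap to all genes was 3.23, 3.37 and 1.17. With equal totals, *Vcan* (log2 fold change 3.63, adjusted *P* = 0.0193), *Tnc* (3.30, adjusted *P* = 0.0292), *Fbn1* (2.34, adjusted *P* = 0.0326) and *Fbn2* (2.12, adjusted *P* = 0.0363) passed an adjusted *P*-value under 0.05 with a log2 fold change over 1.5, beside 4.56% of all genes higher in this fit and 17.0% of those with a mean of at least 50. With voom on the recovered reads *Fn1* (3.33, adjusted *P* = 0.0266), *Vcan* (3.53, adjusted *P* = 0.0256) and *Fbn2* (2.32, adjusted *P* = 0.0389) passed, beside 1.86% of all genes and 7.22% of those with a mean of at least 50. After quantile normalization none of the 10 did, and *Vcan* stood at 1.93 (adjusted *P* = 0.326) and *Fbn2* at 0.04 (adjusted *P* = 0.985).

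In the WT libraries, several of the 10 genes lay close to the odorant and vomeronasal receptor genes, which are known from sensory neurons of the nose. The median normalized count per kb of exon over 1269 such genes was 3.42, 6.70, 3.62 and 5.85 in WT1 to WT4, but 0 in dyW1 and dyW2 and 0.533 in the library labelled dyW3. Per kb, *Fbn2* was between 1.05 and 2.39 times this level in the WT libraries, *Vcan* between 1.48 and 2.89 times and *Tnc* between 1.56 and 4.76 times. *Sparc* was between 107 and 3280 times this level. With the receptor level subtracted from each gene by its length, the log2 fold change was 3.12 for *Fbn2* (adjusted *P* = 0.169), 3.47 for *Vcan* (adjusted *P* = 0.117) and 2.83 for *Tnc* (adjusted *P* = 0.185). In this fit 0 genes were called, although 4595 had an unadjusted limma *P*-value under 0.05.

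Because one scale per library cancels in a ratio, the make-up of the 10-gene RNA was also described per kb of exon. *Sparc* made up 92.1%, 67.9%, 73.8% and 73.7% of the summed level per kb in WT1 to WT4, and 51.6%, 28.3% and 22.4% in dyW1, dyW2 and the library labelled dyW3. The shares did not overlap, with means of 76.9% ± 10.5 (SD, n = 4) and 34.1% ± 15.4 (SD, n = 3), at the smallest *P* this design allows (exact two-sided permutation test, *P* = 0.0571). Of all genes tested, 22.9% were separated lower relative to the same 10-gene sum (2.98% of those with a mean of at least 50). The shares of the 10 genes sum to 100%, so a lower share of *Sparc* leaves more to the others. The rest was made up differently in each dyW library. In dyW1, *Fn1* (17.5%) and *Tnc* (15.7%) followed *Sparc*. In dyW2, *Postn* (22.1%), *Lum* (20.7%) and *Dcn* (16.7%) did, and in the library labelled dyW3 *Postn* led with 35.3%.

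**Figure D3:**
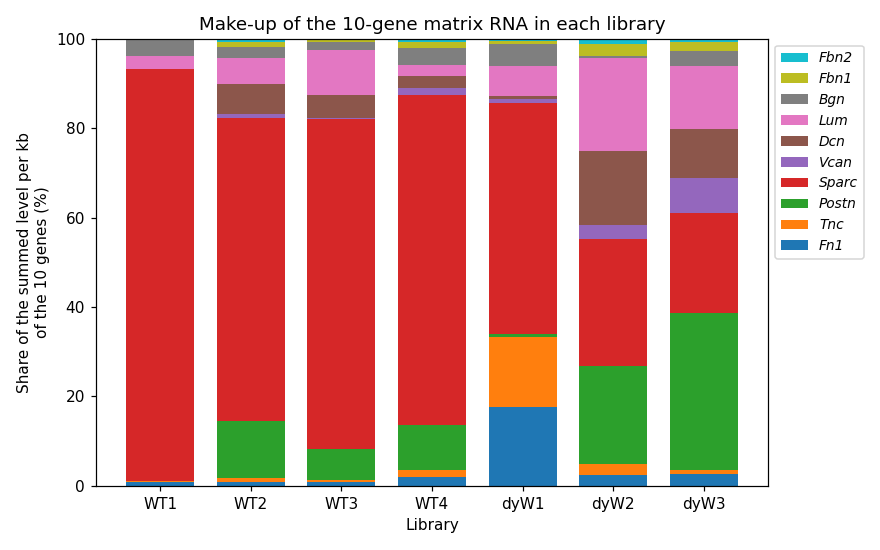
Share of each of the 10 genes in their summed level per kb of exon (%), one stacked bar per library, where dyW3 is the library labelled dyW3. *Sparc* takes between 67.9% and 92.1% of the WT bars and between 22.4% and 51.6% of the dyW bars.

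Ordered by mean level per kb in WT, the genes ran *Sparc* (3858), *Lum* (202), *Bgn* (144), *Postn* (126), *Dcn* (73.3), *Fn1* (43.4), *Tnc* (14.9), *Fbn1* (14.4), *Vcan* (10.7) and *Fbn2* (7.07). *Sparc* was above *Lum* in 4 of 4 WT libraries, while each other step in the order held in 1 to 3 of 4 and so lay within the spread between libraries. In dyW the order was *Sparc* (658), *Postn* (441), *Lum* (302), *Dcn* (216), *Fn1* (130.0), *Tnc* (107), *Vcan* (87.1), *Bgn* (54.3), *Fbn1* (40.9) and *Fbn2* (15.4). There *Lum* over *Dcn*, *Fn1* over *Tnc* and *Fbn1* over *Fbn2* held in 3 of 3 libraries, and the other steps did not.

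The fibrillar collagen chains *Col1a1*, *Col1a2* and *Col3a1* gave a reference from the same matrix. Their summed normalized counts were 1658 in WT1 and between 6325 and 7596 in the other WT libraries. They reached 20746 in dyW1, 19679 in dyW2 and 14717 in the library labelled dyW3, above every WT library. In dyW1 the sum came from *Col1a1* (8467) and *Col1a2* (12046), the chains of type I collagen, with *Col3a1* at 232, whereas *Col3a1* led in dyW2 (11721) and in the library labelled dyW3 (8082). Per unit of this sum, *Sparc* was 28.8, 0.442, 1.54 and 0.515 in WT1 to WT4. It was 0.166, 0.142 and 0.147 in dyW1, dyW2 and the library labelled dyW3, below every WT library (exact two-sided permutation test, *P* = 0.0571). With a denominator that was itself higher in every dyW library, 50% of all genes tested were separated in this direction (29.8% of those with a mean of at least 50), and the normalized counts of *Sparc* overlapped, so the separation is no result about *Sparc*. The other 9 genes overlapped between the groups on this ratio, with exact two-sided permutation *P*-values from 0.114 to 0.914. Against the type VI collagen chains *Col6a1*, *Col6a2* and *Col6a3*, *Vcan* was 0.185 ± 0.0463 (SD, n = 4) against 0.598 ± 0.175 (SD, n = 3), with every dyW library above every WT library (exact two-sided permutation test, *P* = 0.0571), and *Sparc* overlapped (*P* = 0.286). On this ratio 0.202% of all genes tested were separated higher (0.622% of those with a mean of at least 50), whereas the normalized counts of *Vcan* overlapped through dyW1. The summed type VI chains were lowest of the 7 libraries in dyW1 (445, against 581 to 1159.6 in WT, 2613 in dyW2 and 3635 in the library labelled dyW3). *Vcan* itself was at 242 in dyW1, above WT1 to WT3 (112 to 164) and below WT4 (280.0). The part of the low denominator in the separation of dyW1 was not tested.

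**Figure D4:**
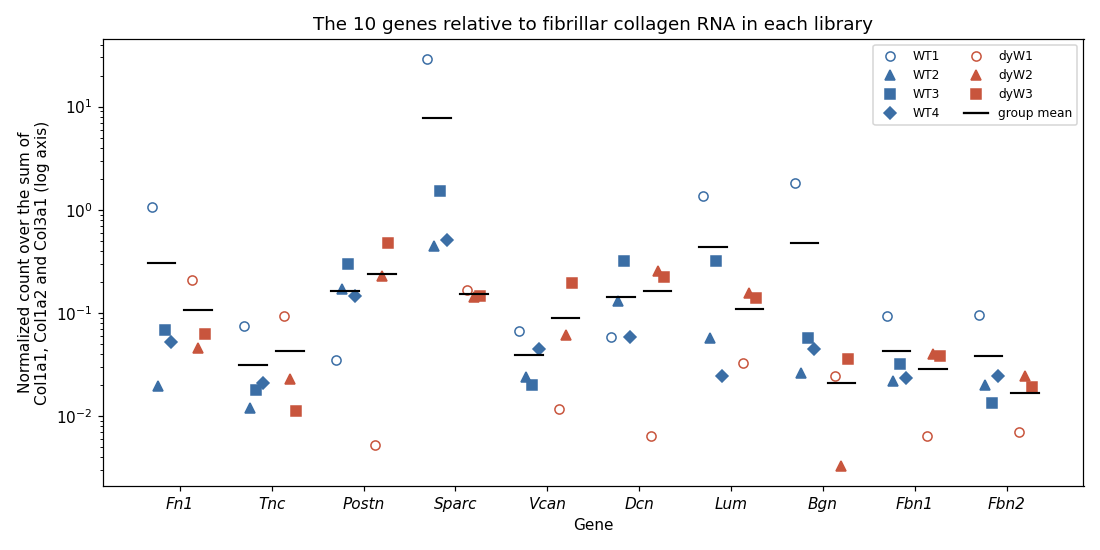
Normalized count of each of the 10 genes over the summed *Col1a1*, *Col1a2* and *Col3a1* of the same library (log axis), with points and bars as in the plot of normalized counts. *Sparc* is the gene whose groups are apart, between 0.142 and 0.166 in dyW and between 0.442 and 28.8 in WT, and 50% of all genes tested were separated in this direction.

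Sums over marker genes of other cell types were also compared. The sum over 12 fibroblast genes, among them the 3 fibrillar collagen chains, was between 2404 and 8228 normalized counts in WT and between 17336 and 21921 in dyW, with 1 of the 12 at 0 in WT1, 3 in dyW1, 1 in dyW2 and 3 in the library labelled dyW3. Without these 3 chains the other 9 genes summed to between 623 and 746 in WT, and to 628, 2242 and 2619 in dyW1, dyW2 and the library labelled dyW3, so that dyW1 lay within the WT range. Much of this came from *Col6a3*, a type VI collagen chain, and without it too the sums were 334 to 549 in WT and 368, 1163 and 556 in the dyW libraries in the same order. Single genes of the list differed in direction: *Pdgfra* was higher in every dyW library (280.4 to 337 against 39 to 123), and *Pi16* (1.47 to 12.1 against 36.9 to 309), *Osr1* (0 to 10.3 against 10.7 to 72.8) and *Tcf21* (0 in each dyW library against 3.15 to 21.6) were lower (these 4 genes were named after their values were seen). The sum over 7 endothelial genes was between 544 and 607 in WT and between 800.4 and 1438 in dyW, with none at 0. *Pecam1*, the most abundant of the 7 in WT, overlapped between the groups, at 119 to 283 in WT and 67.9 to 186 in dyW. The sums over 7 tendon genes (534 to 4041 in WT, 623 to 2304 in dyW), 7 smooth muscle and pericyte genes (496 to 2353 and 249 to 1158), 8 leukocyte genes (117 to 620.2 and 58.1 to 355) and 6 myogenic progenitor genes (53.3 to 451 and 64.8 to 773) overlapped. The parts of these cell types in the levels of the 10 genes were not tested.

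The 10 genes did not follow a single profile. On log2(normalized count + 1) centred on each gene's mean over the 7 libraries, *Fbn1* and *Fbn2* were the closest pair (root mean square difference 0.53), followed by *Postn* and *Dcn* (0.69), *Vcan* and *Fbn1* (0.94), *Fn1* and *Tnc* (1.011) and *Bgn* and *Sparc* (1.06). *Postn* and *Bgn* were the farthest apart (3.64). *Fn1* and *Tnc* peaked in dyW1, *Sparc* and *Bgn* in WT1, and *Postn* and *Vcan* in the library labelled dyW3, while *Dcn*, *Lum*, *Fbn1* and *Fbn2* peaked in dyW2. Among 6111 genes with a mean of at least 50 normalized counts, those closest to the mean profile of the 10 were *Hmgb2*, *Sdha*, *Slc50a1*, *Pggt1b* and *Psma1*, at root mean square differences from 0.22 to 0.28 over 7 libraries. These values describe 7 libraries that differ in depth and tissue.

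**Figure D5:**
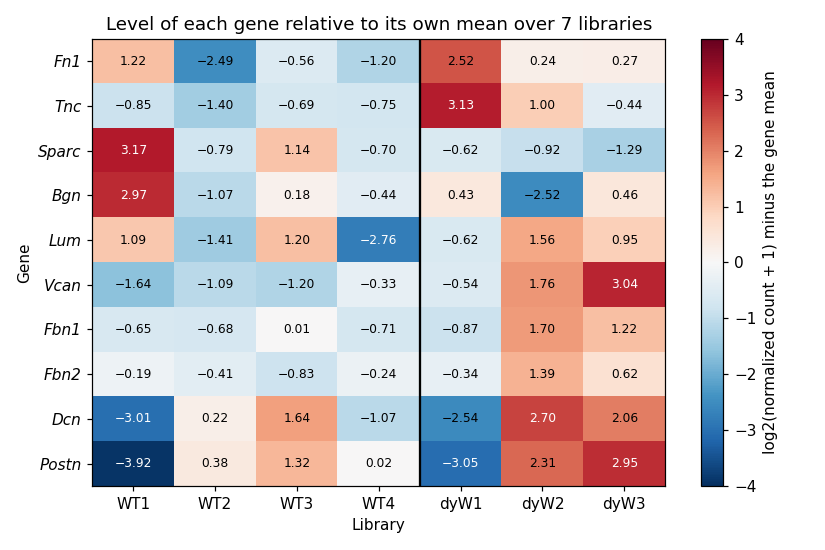
log2(normalized count + 1) of each gene minus its own mean over the 7 libraries (red above, blue below, values printed), with a line between the WT and dyW libraries, where dyW3 is the library labelled dyW3. *Fn1* and *Tnc* are highest in dyW1, *Sparc* and *Bgn* in WT1, and *Postn* and *Dcn* are lowest in WT1 and dyW1.

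In 5 lists of other interstitial matrix genes with 62 members, all tested, 0 were called higher and 2 lower. By the same rule 18.7% of all genes were lower, and 150 of the 6111 with a mean of at least 50. At an unadjusted limma *P*-value under 0.05 these numbers were 1 and 13, where 41.5% of all genes were lower. Among the 6111 genes with a mean of at least 50, 543 were lower, and the median mean of the 62 was 93.4 normalized counts. The median log2 fold change was −1.22, against −1.99 over all genes tested and 0.20 over those with a mean of at least 50. Of the 62, 15 were positive and 47 negative. The called genes were *Has3*, a hyaluronan synthase, and *Vtn*, which encodes vitronectin. *Has3* had 26.7, 37.8, 10.3 and 69.2 normalized counts in WT1 to WT4 and at most 1 read in each dyW library (limma adjusted *P* = 0.00377). *Vtn* had between 5.33 and 29.7 in WT, on 1 to 11 reads, and 0 in each dyW library (limma adjusted *P* = 0.00507). Both lie at low counts, where most genes of the table were lower in dyW. Neither was called without WT1 and dyW1 (limma adjusted *P* = 0.0181 for *Has3* and 0.0169 for *Vtn*). Their log2 fold changes were then −4.88 and −4.15, against −4.82 and −3.77 with all libraries. Both calls were also lost with equal totals, with a replicate block and when WT2, WT4 or dyW2 was left out. At an adjusted *P*-value under 0.05 with the same fold change, *Cd44*, the hyaluronan receptor, was higher. Every dyW library (186 to 328) was above every WT library (21.3 to 80.9), as for 3.28% of all genes and 12.2% of those with a mean of at least 50. *Epyc*, *Podn*, *Ltbp2* and *Ltbp4* were lower in addition to *Has3* and *Vtn* (*Cd44*, *Podn* and *Ltbp2* were named after their values were seen). At this threshold 1% of all genes were higher and 29.6% lower (243 and 311 of the 6111 with a mean of at least 50).

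By list, the counts stand beside the 18.7% and 41.5% of all genes above, and the 150 and 543 of the 6111 with a mean of at least 50. Of 10 leucine-rich proteoglycan genes 0 were called (3 lower at an unadjusted limma *P*-value under 0.05), with a median of −2.47. *Epyc*, epiphycan of growth cartilage, had 9708 normalized counts in WT1, 2876 in WT3 and at most 69.2 elsewhere, and *Fmod*, fibromodulin of tendon and cartilage, had 2607 in WT1, 295 in WT3 and at most 59.8 elsewhere. Of 15 microfibril and elastic fibre partners 0 were called (3 lower before adjustment), with a median of −1.22. *Ltbp4*, a latent TGF-β binding protein, was between 65.6 and 154 in WT and between 7.89 and 25.2 in dyW (limma adjusted *P* = 0.0110), and *Ltbp3* overlapped (adjusted *P* = 0.372). Of 15 matricellular and tenascin relatives 0 were called (4 lower before adjustment), with a median of −1.16, and *Thbs3* (log2 fold change −3.15, adjusted *P* = 0.0864) and *Tgfbi* (−2.54, adjusted *P* = 0.0903) had the largest differences among those with a mean of at least 50. These were −2.66 (adjusted *P* = 0.287) and −2.76 (adjusted *P* = 0.126) without WT1 and dyW1. The 12 versican and hyaluronan partners had a median of −1.04 and the 10 other adhesive glycoproteins −0.75, with 1 gene called lower in each. Without WT1 and dyW1, 2 of the 62 passed an adjusted *P*-value under 0.05 as higher, *Mfap5* and *Nov* (named after their values were seen), and 5 as lower, where 0.809% of all genes were higher and 30.8% lower. Of 6110 genes with a mean of at least 50, 191 were higher and 311 lower in this fit.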

How the data were processed

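Fetal muscle fibers of 4 WT and 3 dyW libraries, independent samples per the study, were analysed, with groups taken from the genotype labels. The authors used Cutadapt for trimming, RNA STAR for alignment (GRCm39) and FeatureCounts for uniquely mapped reads, and deposited normalized counts, each read count divided by 1 size factor per library with DESeq2. Versions, annotation release and strand setting are not given in the sources used here, so reads of overlapping genes are uncertain. In GENCODE release 39 an exon of another gene overlaps *Fn1*, *Postn*, *Tnc*, *Fbn1* and *Fbn2*. The protocol has no molecular identifiers, so reads are not independent molecules. The deposited fold changes and *P*-values of the authors' own comparison were not used.

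Within each library 100% of values were whole multiples of 1 step (tolerance 0.01 reads), which gave the reads. Genes with a mean of at least 5 were tested on log2(normalized count + 1) in R 4.3.3 by limma 3.58.1 with a mean-variance trend, and *P*-values were adjusted over all of them (Benjamini-Hochberg). A fold change on this scale understates that of low genes. Single values were compared with an exact permutation test, two-sided, over all 35 ways to assign 4 and 3 libraries. *P*-values measure the spread between these libraries. Exon lengths came from GENCODE, with 99.2% of identifiers matched. Tested on simulated data at these depths, the fit called 190 of 200 genes changed 16-fold in the right direction and 0 of the unchanged among 25343 genes tested. The changed genes were drawn from those with a mean of at least 50. All libraries were drawn around a pooled mean of each gene, with the same dispersion for every gene. Differences in tissue or in receptor level between libraries were not simulated, so these numbers do not give the performance of the fit on the real libraries.

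The genes and lists were chosen with earlier results of these data known. Named outside the 10 genes are *Lama2*, the collagen chains, the most abundant gene of marker lists, called genes of the 5 wider lists or else the 2 with the largest absolute log2 fold change at a mean of at least 50, and the 5 genes nearest the mean profile. As alternatives, the pseudocount was set to 0.1 and 10, the filter was dropped or raised to a mean of 50, and 2 other scalings, a replicate block, other thresholds and leaving out each library were tried. Leaving out WT1 and dyW1 together, voom on the recovered reads and subtraction of the receptor level were chosen after seeing the data. Tables and plots were made in Python 3.11.15 with scipy 1.17.1, pandas 2.3.3, matplotlib 3.10.9 and numpy 2.4.6.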

Additional observations from a re-analysis of the deposited data

Results flagged for a closer look

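In 2 of the 10 groups of 4 WT libraries tested, 1 per gene, the highest library lay farther from the next than Dixon's 95% critical value allows, where chance gives about 1 in 20. *Bgn* stood at 2985 normalized counts in WT1, against 181 to 431 in the other WT libraries, and WT1 is also the library with the most cartilage RNA. The part of cartilage in this value was not tested. *Fbn1* stood at 244 in WT3, against 148 to 155 in the other WT libraries. Groups of 3 were not tested, so the dyW libraries, dyW1 included, could not be marked in this way.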

How the results depend on the processing

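Over 19 alternatives each, the log2 fold changes of the 10 genes kept their direction and their side of the rule for calls in 185 of 190 cases. The alternatives in the thresholds reuse the main fold changes, so direction could not change there. In the settings with no gene of the whole table called, staying uncalled says nothing particular about the 10. *Vcan* passed at 3.46 without dyW1 and at 2.49 with an adjusted *P*-value under 0.05, and the number of the 10 called was 1 in these settings and otherwise 0. *Bgn* reversed to 0.19 with equal totals and 0.47 with voom on the recovered reads, and ran from −1.46 to 0.0321 when each library was left out. Calls over all genes (17 higher, 4830 lower) became 41 higher with a pseudocount of 0.1, 10 higher without a filter, 68 higher with voom and 0 and 2 after quantile normalization. They became 259 and 7625 at an adjusted *P*-value under 0.05, and 0 and 0 with a pseudocount of 10, at a mean of at least 50, with equal totals, with the receptor level subtracted and without WT1 and dyW1. Leaving out each library gave 0 to 25 higher and 0 to 6698 lower, with none left without WT2, WT4 or dyW2. In the settings with 0 and 0, between 1253 and 10924 genes had an unadjusted limma *P*-value under 0.05. Of the 62 wider genes, the 2 lower calls became 0 in each of these settings with at most 2 lower genes, 0 to 7 when each library was left out, and 1 higher and 6 lower at an adjusted *P*-value under 0.05. The cause was not tested.

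With a replicate block, 0 genes were called higher and 1 lower, and 0 of the wider genes. The labels name no shared litter, same-numbered libraries deviated with correlations of 0.383, 0.011 and −0.146, and a library matched its own number best only for number 1, so the numbers were not taken as pairs.

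Of 180 differences in mean level or collagen ratio (dyW minus WT), 162 kept their direction. When each library was left out, the difference in mean *Bgn* ran from −866 to 69.3 normalized counts, positive without WT1. The difference in ratio to fibrillar collagens ran from −0.290 to 0.0595 for *Fn1* (positive without WT1), −0.0451 to 0.190 for *Postn* and −0.00275 to 0.0895 for *Vcan* (both negative without the library labelled dyW3), −0.0144 to 0.0273 for *Tnc* (negative without dyW1), −0.0285 to 0.0970 for *Dcn* (negative without WT1, WT4, dyW2 or the library labelled dyW3) and −0.0212 to 0.00259 for *Fbn1* (positive without WT1). Without WT1 and dyW1 it reversed for *Fn1* (0.00762), *Tnc* (−1.29e-04), *Lum* (0.0151), *Fbn1* (0.0136) and *Fbn2* (0.00249), and against type VI collagens for *Fn1* (2.46), *Fbn1* (0.0559) and *Fbn2* (0.0354). The edgeR and DESeq2 fits planned on recovered reads were not run. Depth limits the WT values most, where 11 reads of *Postn*, 18 of *Dcn*, 21 of *Vcan* and 23 of *Tnc* in WT1 are the lowest.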
